A study of Mus musculus with 6 samples.

Results

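The genes from the insulin receptor to the FOXO transcription factors were examined in the gastrocnemius, a calf muscle, in 3 wild-type (Nogo+/+) mice and 3 mice lacking Nogo (Nogo-/-), each mouse giving 1 polyadenylated RNA library. The members are *Insr*, *Irs1*, *Irs2*, *Pik3ca*, *Pik3r1*, *Akt1*, *Akt2*, *Foxo1*, *Foxo3* and *Trib1*, a list given by name, and all 10 were among the 12353 genes of the deposited table. The Nogo-/- mice were a gift of another laboratory and both groups were kept on a light-dark cycle, while the age, sex and strain of these 6 mice and the hour of sampling are not given in the sources used here. Values are FPKM, the fragments of a gene scaled for transcript length and for depth, so that levels of different genes can be compared. Libraries are named Sample 1 to 3 (Nogo+/+) and Sample 4 to 6 (Nogo-/-), and these numbers pair no mice.

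Insulin binds its receptor, a tyrosine kinase, which phosphorylates the docking proteins IRS1 and IRS2. These recruit phosphoinositide 3-kinase (PI3K), a catalytic and a regulatory subunit, whose lipid product brings AKT kinases to the membrane. AKT phosphorylates FOXO factors and thereby holds them out of the nucleus, and in muscle FOXO factors are known for turning on genes of protein breakdown when insulin is low. The pseudokinase TRIB1 belongs to the Tribbles family, of which some members bind AKT, and is best known as a scaffold that leads C/EBP factors to degradation through the ubiquitin ligase COP1. Only mRNA was measured here, and neither phosphorylation nor protein.

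*Rtn4*, the Nogo gene, on chromosome 11 from 29692947 to 29744331, was at 414, 429 and 425 in Samples 1 to 3 and at 0.423, 0.312 and 0.368 in Samples 4 to 6. The 10 fiber markers were high in all libraries, with a summed FPKM of 36540 to 39168. The 8 skin keratin and epidermal markers set Sample 6 apart, summing to 228 there and to 3.94 to 15.3 in the other 5 libraries, with *Krt5*, *Krt14* and *Krt1* listed at 0 in Sample 1 and *Lor* in Sample 4, and none passed. The 10 adipocyte markers summed to 620 to 702 in Nogo+/+ and 673 to 1163 in Nogo-/- muscles, the most in Sample 4. None passed or was at 0, but their median log2 fold change was 0.57. The groups stood apart for *Lep*, *Plin1*, *Cidec*, *Fabp4*, *Pck1* and *Lipe*, and overlapped for *Adipoq*, *Retn*, *Cfd* and *Lpl*. Of all genes, 25.9% had groups that did not overlap. *Cidec* came nearest to passing, at 5.83, 8.95 and 9.38 against 31.7, 18.6 and 13.1 (limma adjusted p = 0.0525). Of 8 endothelial markers 4 fell and 4 did not pass, beside 4.64% of all genes that passed in either direction. The sums were 221 to 253 and 174 to 208. The receptor *Kdr* fell the most, at 14.9, 14.2 and 15.2 against 8.90, 7.86 and 6.13. *Flt1*, another receptor, went the other way without passing, at 10.96, 9.93 and 9.76 against 11.1, 12.5 and 11.02. The 6 Schwann cell markers overlapped, at 240 to 310 and 252 to 310, and none passed. Of 11 clock, fasting and glucocorticoid-responsive genes, 6 rose and 1 fell (4.64% of all genes passed), with sums of 225 to 246 and 473 to 587. The clock gene *Arntl* was at 15.6, 15.2 and 14.95 in Nogo+/+ and 2.198, 1.33 and 1.41 in Nogo-/- muscles. *Dbp*, a clock output factor, was at 16.4, 15.3 and 17.5 against 149, 167 and 145, and *Tsc22d3*, a glucocorticoid-induced gene, at 87.7, 95.5 and 101 against 169, 153 and 225. *Zbtb16* and *Fkbp5*, also induced by glucocorticoids, did not pass, with *Zbtb16* at 12.5, 12.9 and 12.0 against 6.42, 10.6 and 5.79 and *Fkbp5* at 10.4, 11.9 and 10.2 against 10.9, 16.9 and 13.7 (limma adjusted p = 0.0507 and 0.337). The summed level of this list did not overlap between the groups, and the part of its genes and of the cell types in the changes of *Irs2*, *Pik3ca*, *Foxo1* and *Trib1* was not tested. In whole muscle, fewer cells of a type and less RNA per cell cannot be told apart.

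Of the 10 genes, 4 changed in the Nogo-/- muscles, and they lie at different levels of the pathway. *Irs2*, *Foxo1* and *Trib1* rose, and *Pik3ca* fell. Changed means an adjusted p under 0.05 in limma, a linear model that shares information on the spread across genes, fitted to log2(FPKM + 1) after quantile normalization with Benjamini-Hochberg adjustment over all 12353 genes. In that fit 4.64% of all genes changed, 1.89% higher and 2.75% lower, and without quantile normalization the split was 302 higher and 234 lower in place of 233 and 340. At an unadjusted p under 0.05 were 20.5% of all genes, the share beside which the unadjusted counts of the lists stand. The receptor *Insr*, the docking protein *Irs1*, the regulatory subunit *Pik3r1*, both AKT genes and *Foxo3* did not pass. The median log2 fold change over the 10 genes was 0.05, beside -0.0067 over all genes. Since the list was drawn up with earlier results of these data known, its count is a description. The plot of FPKM by library shows every value.

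**Figure D1:**
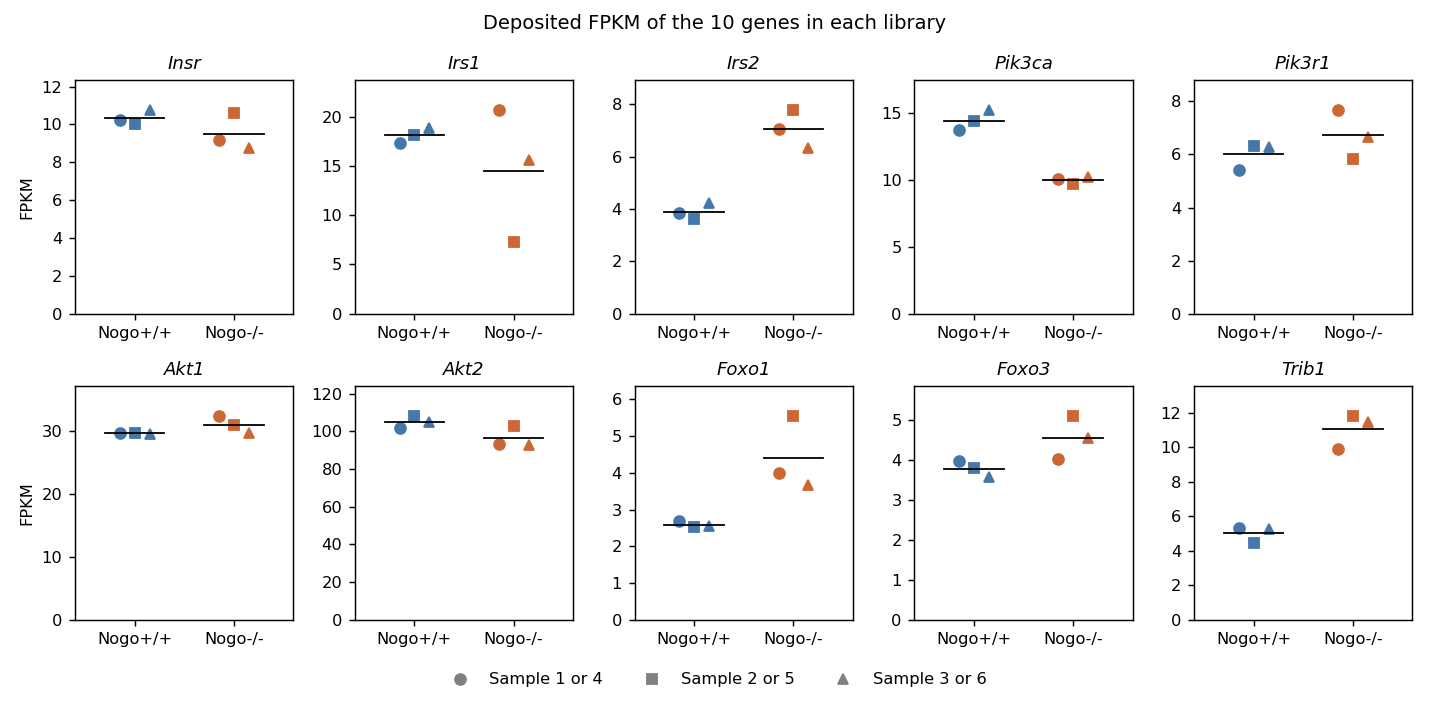
FPKM (vertical axes, from 0) of the 10 genes in the 3 Nogo+/+ and 3 Nogo-/- libraries, with 1 point per mouse and a line at the group mean. The shapes tell libraries apart and pair no mice. The groups stand apart for Irs2, Pik3ca, Foxo1, Foxo3 and Trib1, and the low Irs1 point of Sample 5 is at 7.26.

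The IRS promoters are shown because the balance of *Irs2* to *Irs1* differed most of the 4 within-library ratios computed. The sequences are the 250 bases before the RefSeq transcript start (GRCm38.p6, read 5′ to 3′ on the strand of the gene). Capitals mark the E-box CACGTG, a site of clock and other basic helix-loop-helix factors, and CAAAACA, the core of the insulin response sequence, which appears as TGTTTTG on this strand.
*Irs1*, chr1:82291440-82291689, minus strand: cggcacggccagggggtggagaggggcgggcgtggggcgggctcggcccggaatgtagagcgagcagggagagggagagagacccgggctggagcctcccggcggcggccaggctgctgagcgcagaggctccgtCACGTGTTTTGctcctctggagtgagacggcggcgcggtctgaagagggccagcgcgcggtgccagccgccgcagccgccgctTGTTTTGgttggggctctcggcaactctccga
*Irs2*, chr8:11008930-11009179, minus strand: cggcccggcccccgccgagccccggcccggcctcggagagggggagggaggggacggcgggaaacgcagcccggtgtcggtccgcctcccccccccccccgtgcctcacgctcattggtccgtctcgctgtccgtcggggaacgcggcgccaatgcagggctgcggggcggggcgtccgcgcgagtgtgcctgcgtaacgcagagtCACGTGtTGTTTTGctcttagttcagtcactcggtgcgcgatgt
*Irs4*, chrX:141725218-141725467, minus strand: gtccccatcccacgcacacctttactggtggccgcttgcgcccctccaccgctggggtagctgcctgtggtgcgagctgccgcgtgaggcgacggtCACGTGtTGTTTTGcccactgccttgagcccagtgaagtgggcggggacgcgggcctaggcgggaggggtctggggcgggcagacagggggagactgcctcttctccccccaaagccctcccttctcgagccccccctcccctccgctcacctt

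In *Irs1* the E-box begins 115 bases before the start and overlaps CAAAACA by 2 bases, and a further CAAAACA begins 32 bases before the start. In *Irs2* the pair begins 44 bases before the start and in *Irs4* 154 bases before it, in both with 1 base between the motifs. The same window of *Irs3* held neither motif. On either strand, CACGTG was in 6.02% and CAAAACA in 5.56% of 32851 RefSeq promoter windows of this length, and both were in 0.295% of them. An overlap of at most 2 bases or a gap of at most 1, a rule set after the *Irs1* and *Irs2* sequences were seen, was met in 7 windows of 7 genes out of 27025 genes. Of these, *Irs1*, *Irs2* and *Irs4* are docking proteins of the insulin receptor. The letters are thus shared by *Irs2*, which rose, and *Irs1*, which did not pass, and a match is no proof of a bound site. The part of these letters in either level was not tested. Promoter windows were at hand for 8 of the 10 members, *Insr* and *Trib1* being the others. *Foxo1* and *Pik3ca* held neither motif in theirs, nor the FOXO motif GTAAACA (in 3.17% of windows) or the cAMP response core TGACG (in 17.8%). The GC box GGGCGG, in 32.7% of windows, was in at least 1 window of each of the 8 members.

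*Insr*, on chromosome 8 from 3122061 to 3279617 of GRCm38, encodes the receptor. Its FPKM was 10.2, 10.01 and 10.7 in Samples 1 to 3 and 9.16, 10.6 and 8.77 in Samples 4 to 6. The groups overlapped through Sample 5, and the log2 fold change was -0.15 (95% interval -0.32 to 0.01, limma adjusted p = 0.288). Of 11 measured genes among the other receptors and adaptors of insulin and IGF signaling, *Gab1*, a docking protein that binds PI3K, rose and 10 did not pass, with a median log2 fold change of -0.02. *Gab1* was at 4.77, 4.66 and 4.92 in Nogo+/+ and 6.32, 6.27 and 6.27 in Nogo-/- muscles, with tight groups and a log2 fold change of 0.30 with a standard error of 0.06 (limma adjusted p = 0.0415). Its call was lost in each of the 6 fits on 5 libraries, the highest limma adjusted p being 0.151.

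*Irs2*, on chromosome 8 from 10984681 to 11008458, rose. Its FPKM was 3.84, 3.60 and 4.21 in Samples 1 to 3 and 7.07, 7.77 and 6.33 in Samples 4 to 6. Every Nogo-/- value was above every Nogo+/+ value, with means of 3.88 ± 0.309 and 7.06 ± 0.721 (SD, n = 3 mice each), a ratio of 1.82. The log2 fold change was 0.69 with a standard error of 0.08 (limma adjusted p = 0.00283), and the call was kept in each of the 11 alternative fits. Its values rest on about 307 to 710 fragments per library.

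*Irs1*, on chromosome 1 from 82233101 to 82291416, is the more abundant docking protein and was set apart by 1 mouse. Its FPKM was 17.3, 18.2 and 18.8 in Samples 1 to 3 and 20.6, 7.26 and 15.6 in Samples 4 to 6. Sample 4 was the highest and Sample 5 the lowest of all 6 libraries, so that the Nogo-/- values lie on both sides of the Nogo+/+ values. The low value of Sample 5 rests on about 960 fragments, and that library held about 14448000 fragments, the most of the 6. The log2 fold change was -0.46 (95% interval -1.13 to 0.22, limma adjusted p = 0.436) and -0.05 without Sample 5 (adjusted p = 0.830). Sample 5 had the highest *Irs2*, *Foxo1*, *Foxo3* and *Trib1* of all libraries beside this lowest *Irs1*.

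Within a library the balance of the docking proteins moved toward *Irs2*. The log2 ratio of *Irs2* to *Irs1*, which does not depend on the scaling between libraries, was -2.18, -2.33 and -2.16 in Nogo+/+ and -1.55, 0.10 and -1.30 in Nogo-/- muscles. *Irs2* thus made up 16.5% to 18.3% of the summed FPKM of both genes in Nogo+/+ and 25.5% to 51.7% in Nogo-/- muscles, the highest in Sample 5. The sum was 21.2 to 23.0 in Nogo+/+ and 15.04 to 27.7 in Nogo-/- muscles, so it overlapped. The mean log2 ratio differed by 1.31 between the groups, and by 0.80 without Sample 5. A two-sided exact permutation test gave p = 0.1, the smallest that 3 mice against 3 allow, and p = 0.1 after adjustment over the 4 ratios computed.

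*Pik3ca*, the gene of the alpha catalytic subunit of PI3K on chromosome 3 from 32397671 to 32468486, was the one member that fell. Its FPKM was 13.7, 14.4 and 15.2 in Samples 1 to 3 and 10.1, 9.74 and 10.2 in Samples 4 to 6. The Nogo-/- values had the smallest SD of any called member, with means of 14.5 ± 0.753 and 10.02 ± 0.245 (SD, n = 3 mice each), a ratio of 0.693. The log2 fold change was -0.53 with a standard error of 0.07 (limma adjusted p = 0.00377), again called in all 11 alternative fits. *Pik3r1*, the alpha regulatory subunit on chromosome 13 from 101680563 to 101768217, was at 5.41, 6.32 and 6.28 in Nogo+/+ and 7.67, 5.82 and 6.66 in Nogo-/- muscles. Its groups overlapped, with a log2 fold change of 0.10 (95% interval -0.14 to 0.33, limma adjusted p = 0.652).

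The log2 ratio of *Pik3r1* to *Pik3ca* was -1.34, -1.19 and -1.28 in Nogo+/+ and -0.40, -0.74 and -0.62 in Nogo-/- muscles, a difference of 0.68 with no overlap (two-sided exact permutation p = 0.1, the smallest possible). *Pik3r1* was a minor part of the 3 regulatory genes *Pik3r1*, *Pik3r2* and *Pik3r3*, with 29.996% to 36.5% of their summed FPKM in Nogo+/+ and 30.5% to 36.1% in Nogo-/- muscles. Most was *Pik3r2*, with 49.9% to 56.8% and 53.7% to 60.1%, and the sums of the 3 genes, 17.2 to 18.5 and 18.4 to 23.1, overlapped. Among the 3 measured class I catalytic genes, *Pik3ca* held 62.9% to 66.8% of the summed FPKM in Nogo+/+ and 50.4% to 53.6% in Nogo-/- muscles. *Pik3cd*, the delta subunit known mainly from leukocytes, held 24.3% to 27.0% and 36.0% to 40.0%. Its own FPKM was 5.88, 5.77 and 5.53 against 6.83, 7.73 and 7.12, a log2 fold change of 0.25 that did not pass (limma adjusted p = 0.0944). The sum of the 3 genes was 21.8 to 22.8 in Nogo+/+ and 19.0 to 19.3 in Nogo-/- muscles. The macrophage markers did not separate the groups, with a summed FPKM of 77.7 to 120 in Nogo+/+ and 72.1 to 117 in Nogo-/- muscles, and none of the 8 passed or was at 0. Of the 9 other PI3K genes measured, none passed in limma, 5 had an unadjusted p under 0.05 (20.5% of all genes) and the median log2 fold change was 0.17. *Pik3c3*, a class III kinase of vesicle traffic and autophagy, was at 0.25 (adjusted p = 0.0614) and *Pik3c2b*, of class II, at -0.25 (adjusted p = 0.0891). Of 8 phosphatases of the pathway none passed in limma, and 2 had an unadjusted p under 0.05, near the share of all genes. *Inpp4b* and *Inpp4a*, phosphatases of a later lipid of the pathway, were at -0.32 and -0.14 (adjusted p = 0.200 and 0.299 from limma).

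**Figure D2:**
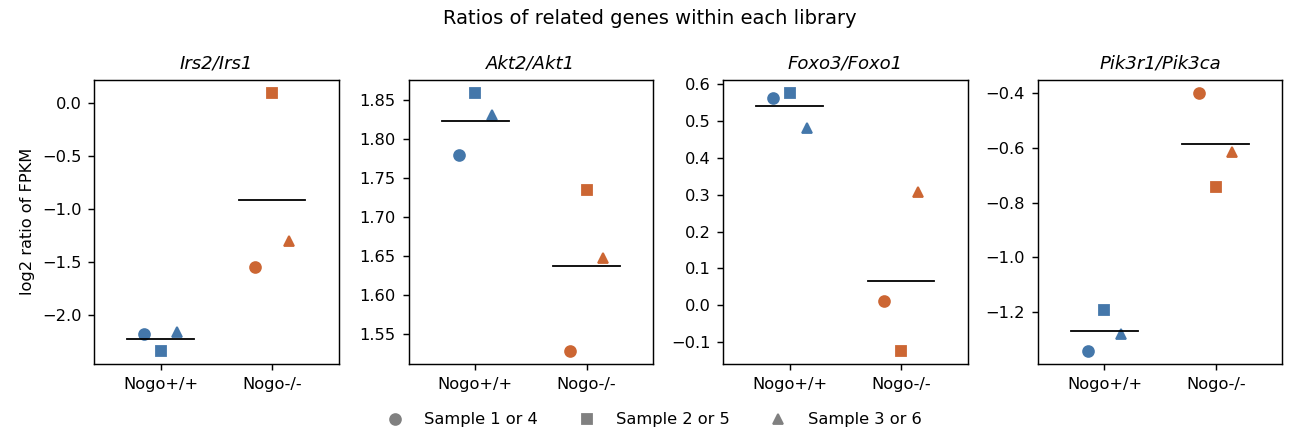
Log2 ratio of the FPKM of 2 related genes within each library (vertical axes, own range per panel, not from 0), with 1 point per mouse and a line at the group mean. The 3 Nogo-/- points lie on 1 side of the 3 Nogo+/+ points in all 4 panels, by the most for Irs2/Irs1 (difference of means 1.31) and the least for Akt2/Akt1 (-0.19).

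Neither AKT gene passed. *Akt2*, on chromosome 7 from 27591552 to 27640826 and the isoform best known for insulin-driven glucose uptake, was the most abundant member. Its FPKM was 102, 108 and 105 in Samples 1 to 3 and 93.2, 103 and 92.9 in Samples 4 to 6, with an overlap through Sample 5. The log2 fold change was -0.16 (95% interval -0.27 to -0.04, limma adjusted p = 0.129). *Akt1*, on chromosome 12 from 112653821 to 112674884, was at 29.7, 29.7 and 29.5 in Nogo+/+ and 32.3, 30.9 and 29.6 in Nogo-/- muscles. Its log2 fold change was 0.0040 (95% interval -0.11 to 0.12, limma adjusted p = 0.977), with a sign that turned without Sample 3 or Sample 4. The ratio of *Akt2* to *Akt1* was 3.43, 3.63 and 3.56 in Nogo+/+ and 2.89, 3.33 and 3.14 in Nogo-/- muscles, without overlap (log2 difference -0.19, two-sided exact permutation p = 0.1, the smallest possible). None of the 9 genes of AKT activation and the mTOR complexes passed in limma, while 4 had an unadjusted p under 0.05, and the median log2 fold change was -0.15. *Rictor*, a core protein of mTOR complex 2, was at -0.25 and *Mapkap1*, another of its subunits, at -0.15 (limma adjusted p = 0.139 and 0.165).

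Downstream of AKT, *Eif4ebp1*, a repressor of translation inactivated by mTOR complex 1, was the 1 of 13 substrates and mTOR targets that rose. Its FPKM was 29.5, 30.9 and 34.5 in Nogo+/+ and 49.1, 46.2 and 42.4 in Nogo-/- muscles, a ratio of 1.45 and a log2 fold change of 0.48 (limma adjusted p = 0.00840). Its call was lost without Sample 2 (limma adjusted p = 0.0518) and kept without any other single library. Of the 7 genes of insulin-responsive glucose handling, the hexokinase *Hk2* rose and 6 did not pass. An unadjusted p under 0.05 in limma was found in 5 of the 7 (20.5% of all genes). The groups stood apart in 4 of the 7 (25.9% of all genes). *Hk2* was at 93.2, 82.3 and 90.0 in Nogo+/+ and 127, 141 and 124 in Nogo-/- muscles, with no overlap and a log2 fold change of 0.52 (limma adjusted p = 0.00283). The glucose transporter *Slc2a4* had groups that did not overlap but was at only 0.05 on the log2 scale (limma adjusted p = 0.414). This gene was chosen after its values were seen.

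*Foxo1*, on chromosome 3 from 52268336 to 52353221, rose by a narrow margin. Its FPKM was 2.69, 2.54 and 2.56 in Samples 1 to 3 and 3.997, 5.54 and 3.68 in Samples 4 to 6. The groups did not overlap, but the Nogo-/- mice spread widely around 4.403 ± 0.996 (SD, n = 3), against 2.59 ± 0.0839 (SD, n = 3) in Nogo+/+ mice, and the ratio of the means was 1.70. The log2 fold change was 0.53 with a standard error of 0.12 (limma adjusted p = 0.0448), on about 296 to 693 fragments per library. It passed in none of the 6 fits without 1 mouse, whose adjusted p ran from 0.0514 (without Sample 6) to 0.157 (without Sample 2), nor in limma without a trend (adjusted p = 0.0721).

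*Foxo3*, on chromosome 10 from 42181841 to 42276755, was at 3.97, 3.78 and 3.57 in Nogo+/+ and 4.03, 5.08 and 4.55 in Nogo-/- muscles. The groups were just apart, and the log2 fold change of 0.18 did not pass (95% interval -0.03 to 0.40, limma adjusted p = 0.318). In all, the FPKM of 5 of the 10 members did not overlap between the groups, beside 25.9% of all genes. The log2 ratio of *Foxo3* to *Foxo1* was 0.56, 0.58 and 0.48 in Nogo+/+ and 0.01, -0.12 and 0.31 in Nogo-/- muscles. *Foxo1* was thus just below *Foxo3* in Sample 4 and above it in Sample 5. The difference was -0.48 (two-sided exact permutation p = 0.1, the smallest possible). Both were minor FOXO transcripts, since *Foxo4* held 82.7% to 83.2% of the summed FPKM of the 4 FOXO genes in Nogo+/+ and 77.1% to 77.2% in Nogo-/- muscles. *Foxo1* held 3.32% to 3.61% and 5.02% to 6.96%. *Foxo4* itself was at 61.8, 61.1 and 64.1 against 53.3, 61.4 and 56.4, with overlapping groups and a log2 fold change of -0.17 (limma adjusted p = 0.148). Of the 13 other FOXO factors and regulators of FOXO none passed in limma, and 5 had an unadjusted p under 0.05. Those with the smallest p, apart from *Foxo4*, were the acetyltransferase *Ep300* at -0.25 and *Foxk2*, a related forkhead factor, at -0.19 (adjusted p = 0.140 and 0.161 from limma).

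Known FOXO targets of muscle moved both ways while *Foxo1* was higher. Of 22 such genes, 3 fell, 2 rose and 17 did not pass, or 5 called beside 4.64% of all genes. An unadjusted p under 0.05 in limma was found in 10 of the 22 (20.5% of all genes). The groups stood apart in 9 of the 22 (25.9% of all genes). The median log2 fold change was -0.04. The ubiquitin ligase *Fbxo32* (atrogin) was at 37.2, 39.9 and 41.0 in Nogo+/+ and 21.7, 24.0 and 20.9 in Nogo-/- muscles, differing by -0.85 on the log2 scale with a standard error of 0.06 (limma adjusted p = 3.01e-04). *Trim63*, a ubiquitin ligase of the sarcomere, was at 123, 128 and 129 against 88.1, 86.3 and 87.7, a log2 fold change of -0.56 (limma adjusted p = 2.32e-04). The third that fell was *Pdk4*, which spares glucose by inhibiting pyruvate dehydrogenase, at 124, 142 and 139 against 109, 118 and 95.5. Those that rose were *Klf15*, at 15.2, 13.4 and 13.8 against 18.4, 20.4 and 18.9, and the ubiquitin ligase subunit *Fbxo21*, at 3.48, 3.62 and 3.62 against 5.01, 5.43 and 4.42. In each of these 5 genes the groups stood apart, which adds no support because they were picked by adjusted p on the same values. *Fbxo32* and *Trim63* passed in all 6 fits without 1 mouse, *Pdk4* and *Klf15* in 2 and *Fbxo21* in none (adjusted p up to 0.149, 0.103 and 0.135 from limma).

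**Figure D3:**
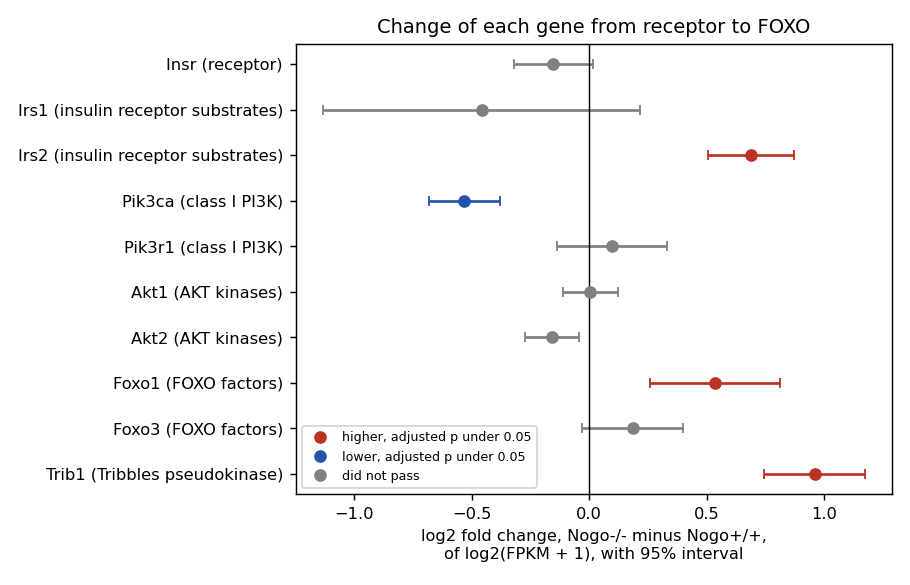
Log2 fold change of each member (horizontal axis, Nogo-/- minus Nogo+/+) with its 95% interval from limma, ordered from the receptor at the top to FOXO, with Trib1 last. Irs2 (0.69), Foxo1 (0.53) and Trib1 (0.96) rose, Pik3ca (-0.53) fell, and Irs1 has the widest interval (-1.13 to 0.22).

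*Trib1*, on chromosome 15 from 59648350 to 59657099, had the largest change of the 10 members. Its FPKM was 5.31, 4.46 and 5.28 in Samples 1 to 3 and 9.89, 11.8 and 11.5 in Samples 4 to 6. The lowest Nogo-/- value was well above the highest Nogo+/+ value, with means of 5.02 ± 0.483 and 11.05 ± 1.02 (SD, n = 3 mice each), a ratio of 2.202. The log2 fold change was 0.96 with a standard error of 0.09 (limma adjusted p = 0.00111), and adjusted p was 7.56e-04 to 0.00833 over the 11 alternative fits. *Trib2* and *Trib3*, the other members of its family, were at -0.11 and -0.03 and did not pass (adjusted p = 0.618 and 0.953 from limma). These 2 genes, *Cop1* and *Cebpa* were chosen after their values were seen. Of its partners and the lipid genes listed with them, *Cebpb* and the triglyceride enzyme *Dgat2* rose and 5 of 7 genes in the list did not pass. *Cebpb*, a C/EBP factor, was at 14.7, 14.4 and 15.6 in Nogo+/+ and 33.3, 24.0 and 40.6 in Nogo-/- muscles, differing by 1.01 on the log2 scale (limma adjusted p = 0.0141), and passed in 2 of the 6 fits without 1 mouse. *Dgat2* was at 26.8, 25.8 and 24.4 against 44.1, 48.4 and 37.2, a log2 fold change of 0.67 (limma adjusted p = 0.00424). The ligase *Cop1* was at -0.22 (limma adjusted p = 0.370). *Cebpa*, another C/EBP factor, was at 4.54, 5.17 and 5.37 against 13.1, 6.79 and 7.48. Its groups stood apart, but its log2 fold change of 0.66 did not pass (limma adjusted p = 0.103).

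The order of the members by level shifted with these changes. In Nogo+/+ muscles the mean FPKM fell from *Akt2* (105) through *Akt1* (29.6), *Irs1* (18.1), *Pik3ca* (14.5), *Insr* (10.3), *Pik3r1* (6.004), *Trib1* (5.02), *Irs2* (3.88) and *Foxo3* (3.77) to *Foxo1* (2.59). Of the neighbours in that order, only *Irs2* and *Foxo3* overlapped in range. In Nogo-/- muscles *Trib1* (11.05) stood at place 4 in place of 7 and *Irs2* (7.06) at place 7 in place of 8, and the ranges of neighbours overlapped from *Irs1* through *Trib1* and *Pik3ca* to *Insr*, between *Irs2* and *Pik3r1*, and between *Foxo3* and *Foxo1*. The wide range of *Irs1* (7.26 to 20.6) also overlapped those of *Irs2* (6.33 to 7.77) and *Pik3r1* (5.82 to 7.67). Across the 6 libraries the genes most like *Trib1* by Pearson's r of log2 values were *Glmn*, *Vav2* and *Cep85l* (0.998, 0.994 and 0.994). Among those most like *Irs2* were *Tef*, an output factor of the circadian clock, and *Tmco6* (0.997 and 0.996). Such values are descriptions over 6 points, and the difference between the groups is in all of them.

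**Figure D4:**
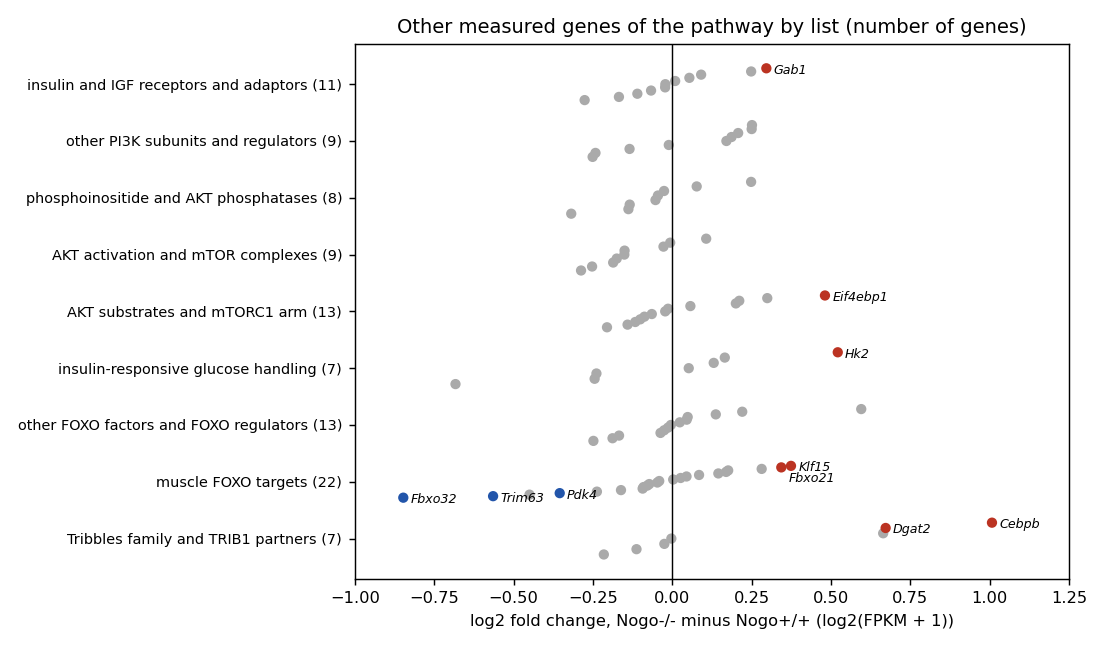
Log2 fold change (horizontal axis, Nogo-/- minus Nogo+/+) of the 99 other measured pathway genes, 1 point each, by list, with genes of adjusted p under 0.05 in red (7 higher) or blue (3 lower) and named. The 3 that fell, Fbxo32, Trim63 and Pdk4, are all in the list of muscle FOXO targets.

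Over all 9 lists, 99 of 103 pathway genes were measured, 7 rose, 3 fell and 89 did not pass, or 10 called beside 4.64% of all genes. The count was 4 without Sample 2, 5 without Sample 3 and 6 without Sample 4.

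*Irs2*, *Pik3ca* and *Trib1* kept their calls without Sample 4, the library with the highest adipocyte markers, at log2 fold changes of 0.70, -0.52 and 1.05. They also kept them without Sample 6, the library with the highest skin markers, at 0.73, -0.56 and 0.91. Leaving out Sample 4 did not level all adipocyte markers. *Cidec* was at 18.6 and 13.1 in Samples 5 and 6, against 5.83 to 9.38 in Nogo+/+ muscles. *Adipoq*, at 27.8 and 17.2 against 12.7 to 20.9, overlapped. The part of fat cells in these calls was not tested. The plot of adjusted p by setting shows all fits.

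**Figure D5:**
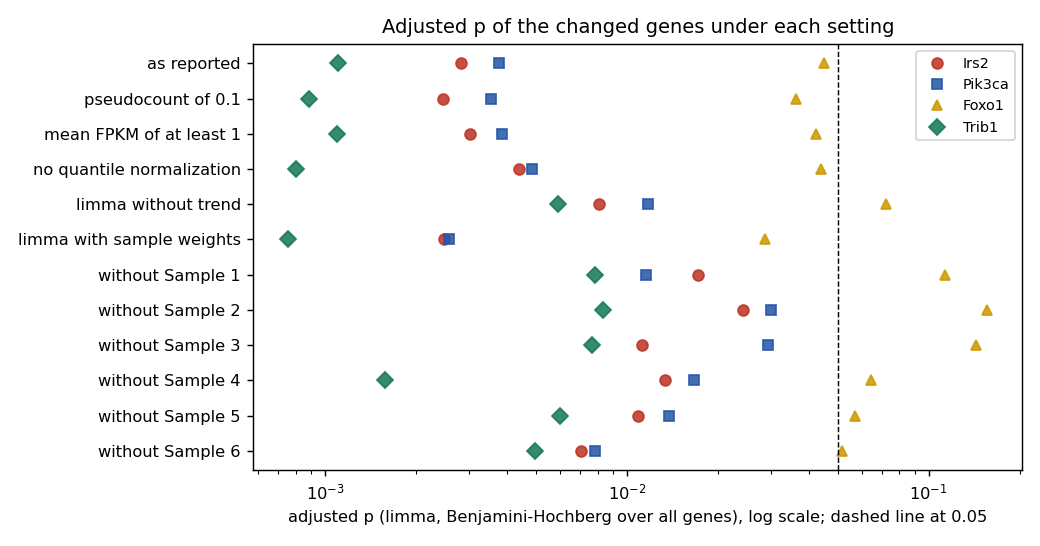
Adjusted p (horizontal axis, log scale, with a dashed line at 0.05) of the 4 changed members in the reported fit and in 11 alternatives, including each library left out. Trib1, Irs2 and Pik3ca lie left of the line in every row, and Foxo1 lies right of it in 7 of the 11 alternatives.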

How the data were processed

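RNA from the gastrocnemius of 3 Nogo+/+ and 3 Nogo-/- mice was sequenced by the authors from stranded mRNA libraries (Illumina). Their notes name CASAVA 1.8.2, cutadapt 1.4.2, STAR 2.6.1, Cufflinks 2.2.1 and the build GRCm38.p6. The deposited FPKM table lists genes that reached an FPKM of 1 in at least 1 library. Its column names hold only a sample number, and the genotype of each number came from the heading of a supplementary table of the study. The other 6 columns, log2 values normalized by the authors, were not used.

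FPKM were quantile-normalized here, set on the log2(FPKM + 1) scale and modelled per gene with limma 3.58.1 (R 4.3.3), its moderated variances following a trend with level. No covariate was used, p-values were adjusted by Benjamini-Hochberg over all 12353 genes, and the threshold was 0.05. A fold change on this scale understates that of a low gene. For the 4 ratios an exact two-sided permutation test was used (Python 3.11.15), whose smallest p is 0.1. The members, pathway lists, markers and motifs were chosen with earlier results of these data known. Named are all members, every called gene of a list (in a list without one, up to 3 of smallest p), and for the 2 members of smallest p the 3 genes most like them. A few genes that this rule names are not reported here. Markers are named where their list differed. Shares of gene families and other genes said to be chosen later were added after values were seen.

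FPKM of genes with a single transcript lay on whole fragments (at least 94.3% within 0.1), which gave about 13483000 to 14448000 fragments per library. Gene positions came from GENCODE M21 (GRCm38), which held 12347 of the 12353 identifiers, and promoters from RefSeq. The fit was tested on simulated data, where part of the smallest changes was missed, so a gene that did not pass may still differ. The 11 alternatives were a pseudocount of 0.1, a filter at a mean FPKM of 1, omission of quantile normalization, limma without trend, limma with sample weights, and each of the 6 libraries left out.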

Additional observations from a re-analysis of the deposited data

How the results depend on the processing

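*Irs2*, *Pik3ca* and *Trib1* kept their direction and their call in all 11 alternative fits (adjusted p from limma at most 0.0242, 0.0300 and 0.00833). *Foxo1* kept its direction in all 11 and lost its call in 7, with adjusted p from 0.0286 to 0.157. The 5 other uncalled members kept their direction and stayed uncalled, whereas *Akt1* turned sign without Sample 3 (-0.0064) and without Sample 4 (-0.022), within a range of -0.022 to 0.024 over the libraries left out. Without 1 library each, the called members numbered 3, the pathway genes called 4 to 8 and all genes called 188 to 434, in place of 4, 10 and 573. For all genes these were 301, 188, 192 and 378 without Samples 1, 2, 3 and 4, and fewer libraries entered these fits. The 4 ratios kept their sign in every alternative. Leaving out 1 library could not turn a sign, because the groups did not overlap for any of the 4. Without 1 library each, the difference was 0.80 (without Sample 5) to 1.62 for *Irs2* to *Irs1*, -0.23 to -0.13 for *Akt2* to *Akt1*, -0.60 to -0.38 for *Foxo3* to *Foxo1* and 0.59 to 0.76 for *Pik3r1* to *Pik3ca*. These moves were under the SD pooled over both groups, to which Sample 5 contributes most for *Irs2* to *Irs1*. With 3 mice a group, leaving out 1 cannot move a difference by more than this SD, so that comparison tests nothing. The loss of *Rtn4* held throughout. No paired analysis was possible because no replicate number stands in the column names, so the fit with a replicate block was not run. The number of mice, 3 a group, and the about 296 to 323 fragments of *Foxo1* in Nogo+/+ libraries limit the precision for the lowest members.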

Other observations

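Besides *Irs1*, *Irs2* and *Irs4*, the adjacent E-box and CAAAACA letters were found in the promoter windows of *Klf11*, *Pcbp1*, *Pyroxd1* and *1700019P21Rik*. *Klf11*, a zinc finger factor, was at 1.58, 1.59 and 1.95 FPKM in Nogo+/+ and 2.50, 1.71 and 2.15 in Nogo-/- muscles. *Pcbp1*, an RNA-binding protein, and *Pyroxd1*, an oxidoreductase, differed by 0.04 and 0.09 on the log2 scale. None of the 3 passed (limma adjusted p = 0.498, 0.649 and 0.636). Of the measured genes with these letters only *Irs2* passed, beside 4.64% of all genes. This is a description, since the rule was drawn from the *Irs1* and *Irs2* sequences.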
